A study of Mus musculus with 14 samples.

Results

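Cell division genes were followed in lymphatic endothelial cells, the cells that line the lymph sinuses of lymph nodes, across 2 sinuses and 2 ways of isolating the cells. The set held 43 genes of the 34797 named on the array, 17 of DNA replication and the entry into S phase and 26 of mitosis. Members were found by exact gene name among the probes that are not controls, and each was read from the probe with the highest mean log2 signal over the 14 arrays. All 43 were on the array.

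The samples came from C57Bl/6 mice, and the labels give no age, sex or treatment. The subcapsular sinus receives incoming lymph under the capsule, and the medullary sinus, which the labels call the lymphatic medullary sinus, carries lymph towards the exit. Laser-capture microdissection (LCM) gave 5 subcapsular and 5 medullary samples of 50 cells each, cut from frozen sections of inguinal, axillary and brachial nodes after CD31 and F4/80 staining. Fluorescence-activated cell sorting gave 2 subcapsular and 2 medullary samples of 1200 cells each, from enzyme-digested nodes of more body sites, with a lineage cocktail, CD73, podoplanin and a dead-cell dye. RNA was amplified with SuperAmp, dyed with Cy3 and read on 1-colour Agilent arrays, 1 array a sample. The titles call the samples biological replicates and do not tie them to animals, so p-values measure the spread between these samples.

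A dividing cell first licenses and copies its DNA and then separates the copies. Cdc6 and Cdt1 load the Mcm2 to Mcm7 helicase on replication origins, geminin (Gmnn) restrains Cdt1, and Cdc45 joins the working helicase. Pcna is the sliding clamp of the DNA polymerases, and Rrm2, Tyms and Tk1 supply nucleotides. In mitosis, Cdk1 with cyclin B (Ccnb1, Ccnb2) drives entry, kinesins and centromere proteins move and hold the chromosomes, the Bub1, Bub1b and Ttk kinases guard their attachment, and Cdc20 with Ube2c ends the phase by protein destruction. Resting lymph node endothelium divides little, whereas germinal centre B cells in the same organ are among the fastest dividing cells of the body.

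The promoters of both classes differed in the letters they hold, a property that played no role in choosing the members. RefSeq promoters (build GRCm38.p6, 250 bases before to 50 after the start) were matched by symbol for 35 of 43 members, 14 of replication and 21 of mitosis. Gmnn, Mcm4, Ccne2, Ccna2, Aurkb, Foxm1, Kif20a and Tpx2 were not matched. E2F letters were searched as TTCCCGC, then as TTGGCGC, next as TTCGCGC and also as TTGCCGC, and longer forms with a further leading T lie within these. The cell cycle homology region (CHR) was searched as TTTGAA or TTCGAA, and the NF-Y box as CCAAT, all on both strands. E2F letters were present in 7 of 14 replication promoters (50%) and in 3 of 21 mitosis promoters (14.3%), beside 9.69% of all 27025 promoters, taking 1 per symbol. CHR letters were present in 17 of 21 mitosis promoters (81%) and 3 of 14 replication promoters (21.4%), beside 19.4% of all. CCAAT was in 19 of 21 mitosis promoters (90.5%), in 8 of 14 replication promoters (57.1%) and in 37.9% of all. CHR and CCAAT letters stood together in 17 of 21 mitosis promoters, beside 7.7% of all. A match of letters is a description of the window and not a bound site.

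The stretches from 170 bases before to 30 after the start are shown for 3 replication and 4 mitosis members, as examples of both layouts among genes described below. Capitals mark the searched letters on either strand. The replication members are Cdc6 (chr11:98907981-98908180, plus strand), Mcm5 (chr8:75109339-75109538, plus strand) and Mcm6 (chr1:128359676-128359875, minus strand). The mitosis members are Mki67 (chr7:135716350-135716549, minus strand), Kif23 (chr9:61946770-61946969, minus strand), Cenpa (chr5:30666716-30666915, plus strand) and Kif11 (chr19:37376212-37376411, plus strand).
Cdc6: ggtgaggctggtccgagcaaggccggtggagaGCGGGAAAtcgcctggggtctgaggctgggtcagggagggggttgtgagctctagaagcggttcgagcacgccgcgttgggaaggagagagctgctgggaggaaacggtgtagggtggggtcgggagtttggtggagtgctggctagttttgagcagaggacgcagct
Mcm5: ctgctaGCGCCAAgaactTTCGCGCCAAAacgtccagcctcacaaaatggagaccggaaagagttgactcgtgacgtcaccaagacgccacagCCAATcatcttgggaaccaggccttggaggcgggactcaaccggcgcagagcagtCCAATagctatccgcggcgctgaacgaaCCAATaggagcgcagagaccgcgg
Mcm6: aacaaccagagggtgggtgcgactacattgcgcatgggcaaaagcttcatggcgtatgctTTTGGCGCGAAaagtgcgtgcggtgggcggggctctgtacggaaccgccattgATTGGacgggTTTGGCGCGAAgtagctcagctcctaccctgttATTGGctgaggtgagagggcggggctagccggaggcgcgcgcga
Mki67: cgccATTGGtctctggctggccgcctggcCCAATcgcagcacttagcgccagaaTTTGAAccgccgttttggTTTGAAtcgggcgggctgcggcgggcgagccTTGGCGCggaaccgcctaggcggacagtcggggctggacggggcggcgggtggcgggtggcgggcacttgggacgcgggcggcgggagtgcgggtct
Kif23: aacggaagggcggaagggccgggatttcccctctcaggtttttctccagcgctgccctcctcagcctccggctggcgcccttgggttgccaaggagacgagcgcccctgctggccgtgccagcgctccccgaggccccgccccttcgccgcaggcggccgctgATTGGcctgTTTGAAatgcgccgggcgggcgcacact
Cenpa: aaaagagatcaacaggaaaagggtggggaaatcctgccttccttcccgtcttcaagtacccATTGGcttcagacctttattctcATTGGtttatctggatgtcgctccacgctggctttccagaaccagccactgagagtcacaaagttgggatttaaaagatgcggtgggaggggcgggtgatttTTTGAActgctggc
Kif11: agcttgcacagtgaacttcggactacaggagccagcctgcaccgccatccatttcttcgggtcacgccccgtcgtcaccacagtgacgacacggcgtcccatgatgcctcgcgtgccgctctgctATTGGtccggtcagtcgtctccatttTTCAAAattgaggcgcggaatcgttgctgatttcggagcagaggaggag
In the Mcm6 stretch the E2F letters lie 110 and 47 bases before the start. In the Kif23, Cenpa and Kif11 stretches the CHR letters begin at base 3, base 17 and base -19 counted from the start, with CCAAT letters upstream of each. Mki67 holds both kinds, with CHR letters at -116 and -98 and E2F letters at -67.

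**Figure D1:**
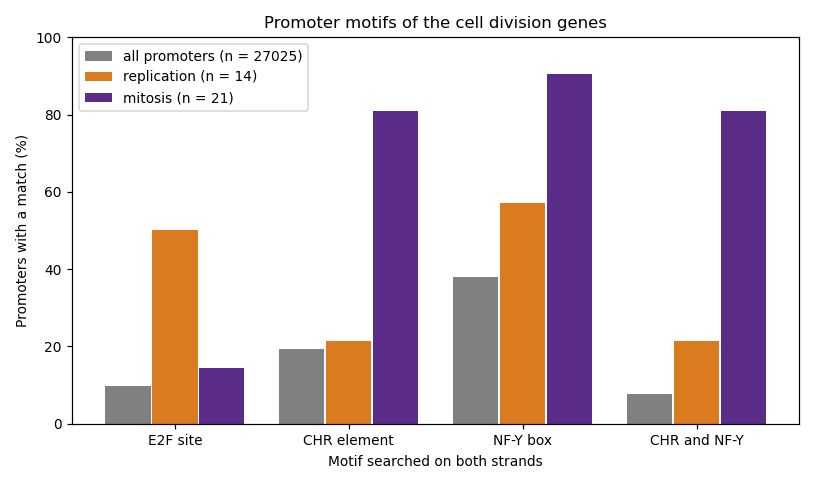
Share of RefSeq promoters (percent, from 0) with a match to E2F, CHR and NF-Y letters among all promoters, replication members and mitosis members. CHR and NF-Y letters together were found in 81% of mitosis promoters and in 7.7% of all promoters.

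Values below are log2 signals minus the 75th percentile of each array, so 0 is the level of that percentile, and a difference of 1 is 2-fold. A probe counts as measured where the scanner software called it well above background. Between 50.78% and 78.98% of probes were well above background per array, the lowest shares being in subcapsular LCM arrays, and no probe was saturated. All 5 subcapsular LCM arrays and the first 3 medullary LCM arrays shared slide 1, and all others were on slide 2. On slide 2 the sorted subcapsular arrays lay in row 1 and the sorted medullary arrays in row 2, so row and sinus cannot be told apart there. On slide 1, subcapsular LCM replicates 1 to 4 lay in row 1. Subcapsular replicate 5 and medullary replicates 1 to 3 lay in row 2, so row and sinus mostly go together there too. Of the lymphatic endothelial markers, Prox1 and Pecam1 were above background on 14 of 14 arrays, but Pecam1, which encodes CD31, read 3.97 and 5.27 in sorted subcapsular and -3.36 and -3.83 in sorted medullary arrays. Lyve1 was above it on neither sorted medullary array and on 1 of 2 sorted subcapsular arrays, and Cdh5 on no sorted medullary array. Pdpn, which encodes podoplanin, was above it on both sorted medullary arrays and on 1 of 2 sorted subcapsular arrays. Across all 4 comparisons of genes named on the array, limma called 48 genes (0.175% of those tested) between sinuses in LCM, 0 in sorted cells, 1141 (3.84%) between isolations and 385 (1.3%) for the difference between the sinus effects. Calls use a Benjamini-Hochberg adjusted p under 0.05. The 48 LCM calls split into 46 higher and 2 lower in the medullary sinus, and into 10 and 5 under quantile scaling. Fewer dividing cells and less RNA of these genes per cell cannot be told apart in such samples.

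Most members were measurable in every group, and mitosis members dropped out mainly in the subcapsular LCM arrays. In those 5 arrays, 17, 15, 22, 12 and 17 of 26 mitosis members were above background, against 23, 24, 20, 24 and 20 in the medullary LCM arrays. The ranges overlapped through subcapsular replicate 3. Replication members were above background for 11 to 13 of 17 in subcapsular and 13 to 14 of 17 in medullary LCM arrays. All genes moved the same way, from 57.5% to 74.1% in subcapsular and 73% to 79.4% in medullary LCM arrays, and the part of this in the members' counts was not tested. The 74.1% was subcapsular replicate 5, in row 2, while replicates 1 to 4, in row 1, reached at most 65.6%. In sorted cells, 24 and 24 mitosis members were measured in the subcapsular arrays and 24 and 18 in the medullary arrays, beside 16 and 14, and 13 and 13, replication members. Of the 43 members, 15 were above background on all 14 arrays, among them E2f1, Cdt1, Mcm4, Mcm6, Tyms, Birc5, Plk1 and Aurka. Ccne2, Cdc6, Rrm2, Aurkb and Cenpf were above it on fewer than 7. Aurkb, the chromosomal passenger kinase, was measured on 1 sorted medullary array only, and Ccne2, a cyclin E of S phase entry, on 1 subcapsular LCM array only.

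**Figure D2:**
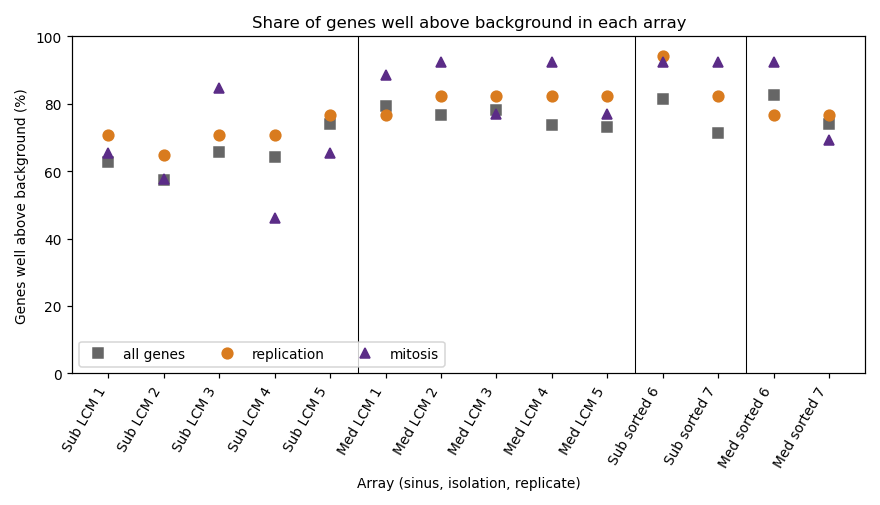
Percent of genes well above background (y axis, 0 to 100) on each of the 14 arrays, for all genes, the 17 replication members and the 26 mitosis members. The mitosis share runs from 46.2% to 84.6% in subcapsular and from 76.9% to 92.3% in medullary LCM arrays.

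**Figure D3:**
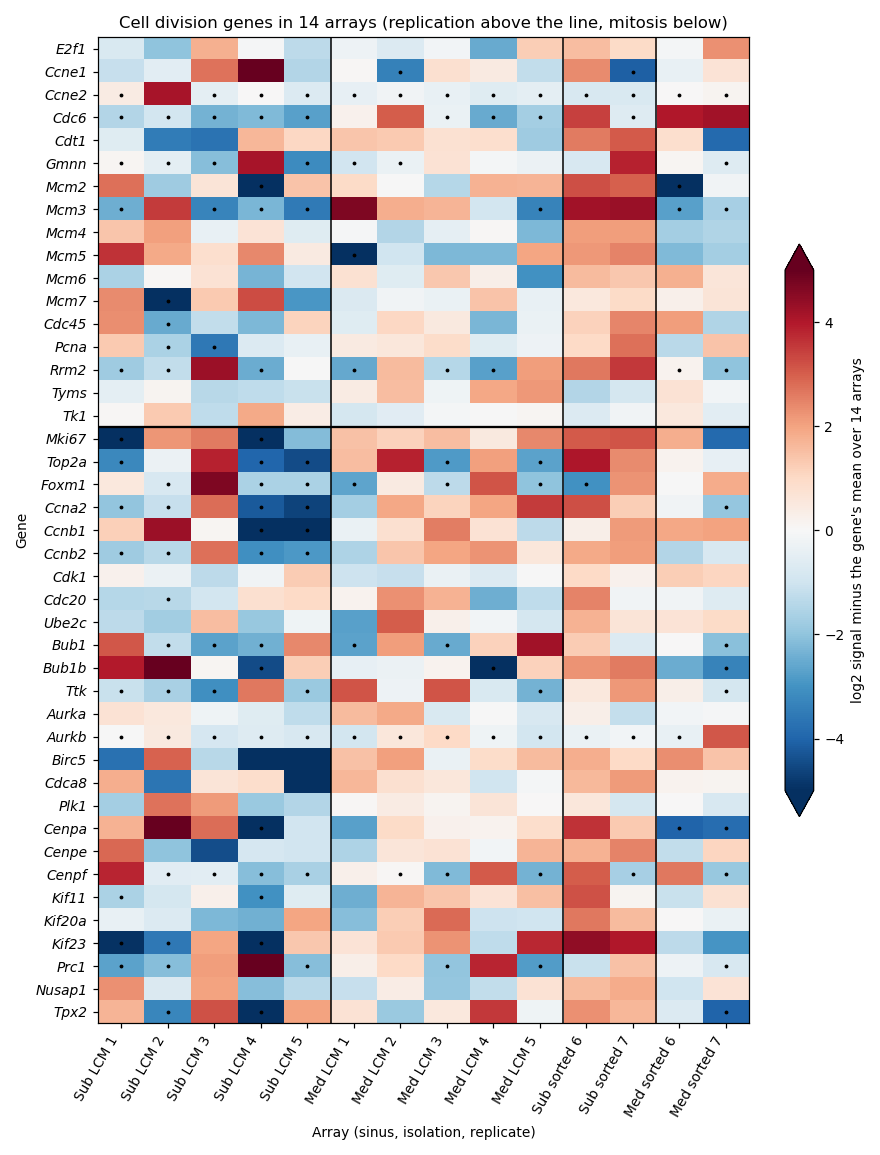
Log2 signal of each of the 43 members (rows) on the 14 arrays (columns) minus that gene's mean over the 14 arrays, with colours ending at 5 in either direction. Black dots mark values not well above background, and sorted subcapsular arrays are mostly above each gene's mean.

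Between the sinuses in LCM samples, no cell division gene passed the test, and the mitosis genes were uneven from one subcapsular sample to the next. Mki67, the usual marker of cycling cells (probe at chr7:142884764-142884823 on mm9, minus strand), stood at -6.17, 3.35, 3.76, -5.31 and -1.03 in the 5 subcapsular arrays and between 1.63 and 3.57 in the 5 medullary arrays. Subcapsular replicates 1 and 4 were not above background for it, while replicates 2 and 3 were as high as the highest medullary array or nearly so. The mean difference, medullary minus subcapsular, was 3.64 (SE 1.86, adjusted p = 0.481). Of the 37 members that could be tested, 0 were called, beside 0.175% of all genes (0.168% higher, 0.0073% lower in the medullary sinus). Arrays of the sinuses did not overlap for 0 of 37 members in either direction, beside 1.03% (medullary higher) and 2.06% (medullary lower) of all genes. At an unadjusted p under 0.05 there were 3 members higher in the medullary sinus and 1 lower, beside 6.88% and 4.81% of all genes. Gmnn, Mcm3, Top2a, Ccna2, Ccnb2, Bub1, Ttk, Kif23 and Prc1 passed the background filter only through the medullary arrays. Their differences and p rest mostly on subcapsular values not above background, and Ccna2 is among the 3 higher. No member passed only through the subcapsular arrays.

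Among replication members, Tyms, which makes thymidylate, had the lowest p. It read -1.23, -0.59, -2.13, -2 and -1.84 in subcapsular and -0.35, 0.8, -0.97, 1.19 and 1.44 in medullary arrays, a difference of 1.98 (SE 0.61, adjusted p = 0.271). Medullary replicate 3 lay below the highest subcapsular array, so the groups overlapped. Mcm5, a helicase subunit (chr8:77651350-77651410, plus strand), read 3.4, 1.7, 0.64, 2.22 and 0.24 in subcapsular and -6.64, -1.21, -2.43, -2.44 and 1.79 in medullary arrays. Its difference was -3.83 (SE 1.33, adjusted p = 0.323), and medullary replicate 5 fell within the subcapsular range. Mcm4, another subunit, read 5.03, 5.68, 3.26, 4.33 and 3.01 against 3.57, 2.16, 3.18, 3.69 and 1.4, a difference of -1.46 (SE 0.7, adjusted p = 0.45). The groups overlapped there too. The other helicase subunits gave differences of 1.17 (Mcm2), 2.4 (Mcm3), 0.56 (Mcm6) and 0.41 (Mcm7), with adjusted p from 0.612 to 0.946. The 6 helicase subunits therefore had no common sign in this comparison. Within slide 1 the Mcm5 difference was -5.07 (adjusted p = 0.157). Mcm2 read 2.23, -2.3, 0.09, -6.47 and 0.9 in subcapsular and 0.42, -0.54, -1.97, 1.2 and 1.18 in medullary arrays. Pcna read -1.41, -4.33, -6.3, -3.41 and -3.11 in subcapsular and -2.27, -2.18, -1.8, -3.34 and -2.99 in medullary arrays, a difference of 1.19 (SE 0.83, adjusted p = 0.612). E2f1, a factor that turns on S phase genes, had the same mean of 0.44 in both sinuses, with SDs of 1.45 and 1.35 (n = 5 each). Cdt1 differed by 1.51, Cdc45 by 0.18, Gmnn by 0.11, Tk1 by -0.76 and Ccne1, a cyclin E, by -1.6, none with an adjusted p under 0.652. Ccne2, Cdc6 and Rrm2 were measured on too few LCM arrays to be tested. Of the 14 members with other probes, 11 had a probe of the other sign in at least 1 isolation and are uncertain: Ccne1, Cdc6, Gmnn, Tk1, Foxm1, Ccnb1, Cdk1, Ube2c, Birc5, Cdca8 and Kif23. Mcm3, Mki67 and Tpx2 kept 1 sign over their probes. Another Ccnb1 probe, above background on 14 arrays, gave -1.63 in LCM, where the chosen one gave 2.26. The chosen Gmnn probe lies on the strand opposite to the gene, so its values are uncertain as a measure of geminin RNA. The other Gmnn probe, above background on 3 arrays, gave 3.19 in sorted cells, where the chosen one gave -1.8.

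Among mitosis members, Birc5 (survivin, of the chromosomal passenger complex) read -2.76, 3.93, -0.41, -4.06 and -4 in subcapsular and 2.44, 3.03, 0.64, 1.89 and 2.58 in medullary arrays. Its difference was 3.58 (SE 1.4, adjusted p = 0.372), and subcapsular replicate 2 was above every medullary array. Ccna2, cyclin A of S phase and early mitosis, was above background in subcapsular replicate 3 only, at -0.01, with the other 4 between -7.41 and -3.94. It read -4.51, -0.86, -1.69, -0.81 and 0.69 in medullary arrays, all above background, and the difference was 3.19 (SE 1.42, adjusted p = 0.42). Kif23, a kinesin of the central spindle (chr9:61767492-61767732, minus strand), read -6.16, -4.81, 0.73, -6.96 and 0.12 against -0.54, 0.1, 1.02, -2.48 and 2.54, a difference of 3.54 (SE 1.61, adjusted p = 0.429). Subcapsular replicates 3 and 5 lay inside the medullary range for Kif23. Ccnb2 and Kif11, a cyclin B and the kinesin that pushes spindle poles apart, had differences of 2.19 and 1.74 (adjusted p = 0.492 and 0.488). Ccnb2 was above background in subcapsular replicate 3 only. Top2a, the topoisomerase that untangles chromosomes, read -5.87, -2.96, 1.2, -6.63 and -7.14 in subcapsular and -1.13, 1.18, -5.5, -0.6 and -5.34 in medullary arrays. Ccnb1 read 1.12, 4.21, 0.01, -7.09 and -7.45 in subcapsular and -0.39, 0.71, 2.49, 0.65 and -1.37 in medullary arrays. For both genes the subcapsular arrays spanned more than the whole medullary range. Cdk1 read -1.94, -2.44, -3.46, -2.31 and -0.88 in subcapsular and -3.19, -3.29, -2.46, -2.84 and -2.15 in medullary arrays, a difference of -0.58 (adjusted p = 0.74). Its probe was above background on all 14 arrays while its other 2 probes were above it on 2 and 1, so its level is uncertain. Bub1b gave -2.28 and the remaining tested mitosis members lay between -0.77 (Cenpa) and 1.58 (Ttk, Cdca8), except for Top2a at 2 and Ccnb1 at 2.26. That range holds Cdc20, Ube2c, Bub1, Aurka, Plk1, Cenpe, Kif20a, Prc1, Nusap1 and Tpx2. Foxm1, Aurkb and Cenpf could not be tested in LCM. With normexp background correction the Kif23 and Ccna2 differences were 1.31 and 0.83.

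In sorted cells, most cell division genes had lower means in the medullary than in the subcapsular arrays, and none passed the test with 2 arrays a group. Mcm4 read 5.74 and 5.72 in the subcapsular and 1.94 and 2.12 in the medullary arrays, and Mcm5 1.96 and 2.29 against -2.39 and -1.9. Of the 40 members tested, 0 were called, beside 0% of 27662 genes. At an unadjusted p under 0.05, 14 of 40 were lower and 0 higher in the medullary arrays, beside 13.7% lower and 18.2% higher of all genes. Arrays of the sinuses did not overlap for 20 members that were lower and 3 that were higher in the medullary arrays, beside 26.7% and 43% of all genes. Of the 14, Mcm2, Mcm3, Rrm2, Ccna2, Bub1b, Cenpa and Tpx2 passed the background filter only through the subcapsular arrays, where they are high. These members and Ttk are also among the 20. Cdc6, among the 3 higher, passed only through the medullary arrays. Both counts thus rest in part on the filter. Housekeeping genes had 6 of 15 lower at an unadjusted p under 0.05, and a median difference of -1.67 beside -1.66 over the 43 members. The median over all genes was 0.86.

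The replication members with the lowest p were Mcm3, Mcm5 and Mcm4. Mcm3 (chr1:20793136-20793195, minus strand) read 0.36 and 0.45 in the subcapsular arrays and was not well above background in either medullary array, with measured values of -6.58 and -5.51. On group means it was at least 28.1-fold lower there (adjusted p = 0.0645). The bound sets the dim group at the lowest signal well above background or its own value if higher. This and the bounds below hold only for the background handling used here. It entered the fit only through the subcapsular arrays, where it is high, so its p rests on medullary values not above background. Its second probe gave -6.3. Mcm5 differed by -4.27 (SE 0.59, adjusted p = 0.0688) and Mcm4 by -3.7 (SE 0.55, adjusted p = 0.0727). Rrm2, the small subunit of ribonucleotide reductase, was lower in the medullary arrays by at least 7.28-fold (adjusted p = 0.114). Rrm2 too entered only through the subcapsular arrays, and no medullary value was above background. Mcm2 and Gmnn entered the same way, each with 1 medullary array above background. Mcm2 read 2.67 and 2.46 against -6.71 and -0.7, and its 2 medullary arrays lay far apart. Cdt1 read 3.04 and 3.51 against 1.29 and -3.43, again with 1 low medullary array. Pcna read -1.75 and 0.03 against -4.1 and -1.3, and its arrays overlapped. Tyms and Cdc6 had the opposite sign, with differences of 1.47 and 2.73 (adjusted p = 0.201 and 0.266). Cdc6 and Ccne1 entered only through the medullary arrays. Mcm6, Mcm7 and E2f1 differed by -0.27, -0.28 and -0.15, and Cdc45, Gmnn, Tk1 and Ccne1 by -1.53, -1.8, 0.45 and 1.01. With normexp the Mcm3 difference was -2.74, a smaller fold than its bound of 28.1.

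The mitosis members with the lowest p were Bub1b, Kif23 and Cenpa. Bub1b, the checkpoint kinase BubR1, read 0.67 and 1.04 in the subcapsular and -4.04 and -4.91 in the medullary arrays, a difference of -5.33 (SE 0.64, adjusted p = 0.0645). It entered the fit only through the subcapsular arrays, where it is high, because only 1 medullary array was above background. Kif23 read 3.19 and 2.78 against -2.54 and -4.18, a difference of -6.35 (SE 0.81, adjusted p = 0.0666), but its second probe, above background on 6 arrays, gave 3.13, and the mean of both probes gave -1.61 (adjusted p = 0.299). Cenpa, the histone H3 variant of centromeres, read 3.03 and 0.73 in the subcapsular arrays and was not above background in the medullary arrays, at least 78.2-fold lower (adjusted p = 0.074). Cenpa too entered the fit only through the subcapsular arrays, and its p here and in the fits below rests on that. The same holds for the calls of Bub1b and Mcm3 in the fits below. Ccna2, Tpx2, Bub1, Ttk and Prc1 also entered only through the subcapsular arrays, and Foxm1 only through the medullary arrays. Ccnb2 differed by -3.12 (adjusted p = 0.0909), Top2a by -3.34 (adjusted p = 0.113) and Ccna2 by -3.29 (adjusted p = 0.144). Top2a read 1.4 and -0.28 against -2.5 and -3.06, and Ccna2 0.43 and -1.56 against -2.99 and -4.72. Mki67 read 4.21 and 4.32 against 2.98 and -2.73, a difference of -4.14 (SE 2.1, adjusted p = 0.233), with medullary replicate 7 the low array. Ccnb1 read 0.22 and 2.06 against 1.86 and 1.93, and Cdk1 -1.16 and -1.92 against -0.91 and -1.09, so neither had a lower medullary mean. Birc5, Foxm1 and Aurka also had medullary means that were not lower, with differences of 0.46, 1.31 and 0.34. Tpx2, a spindle assembly factor, differed by -4.32, Kif20a by -2.27, Cenpe by -2.19, Nusap1 by -1.86, Kif11 by -1.83, Cdca8 by -1.7, Ttk by -1.66, Cdc20 by -1.57, Bub1 by -1.32, Prc1 by -0.69, Ube2c by -0.37 and Plk1 by -0.25. With normexp the Bub1b and Cenpa differences were -3.04 and -3.99, for Cenpa a smaller fold than its bound of 78.2. With trend and robust variance, limma called 6 members at this step (Bub1b, Cenpa, Kif23, Mcm3, Mcm4, Mcm5) among 1813 genes. With all 14 arrays in 1 fit it called 4 (Cenpa, Kif23, Mcm3, Mcm4) among 4414.

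**Figure D4:**
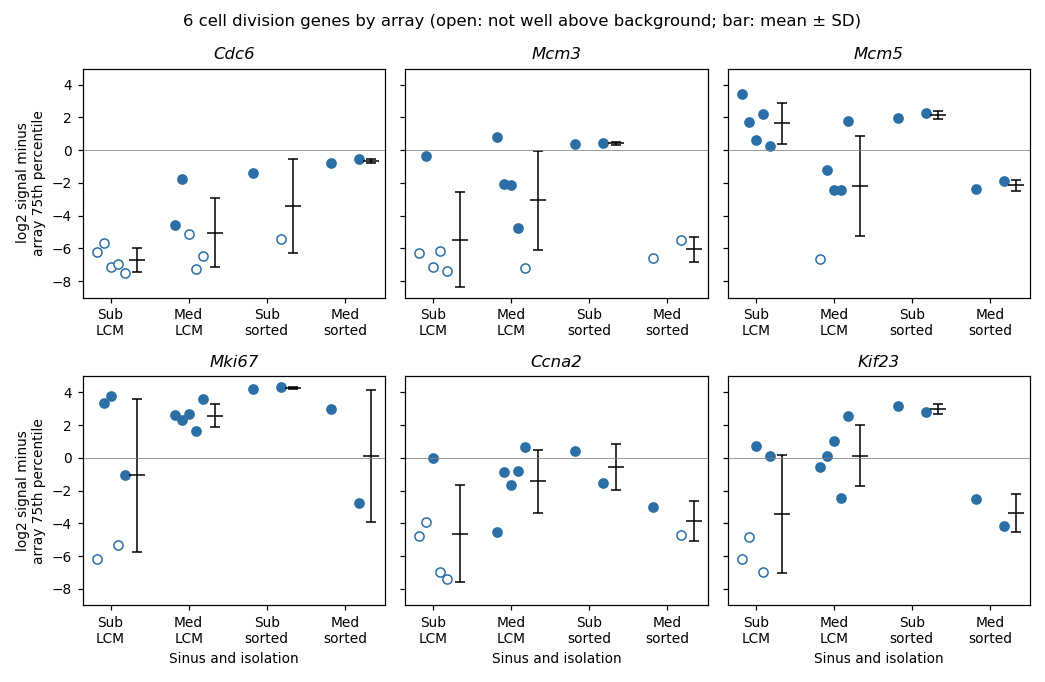
Log2 signal minus the array's 75th percentile (y axis) for Cdc6, Mcm3, Mcm5, Mki67, Ccna2 and Kif23 in the 4 groups, 1 point an array, open where not well above background, with mean and SD at the right of each group. Sorted subcapsular arrays lie above sorted medullary arrays for Mcm3, Mcm5, Mki67, Ccna2 and Kif23, and Cdc6 runs the other way.

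Replication and mitosis genes were set against each other in each comparison. In LCM samples the median difference was 0.18 over the 17 replication members, with 10 above 0, and 0.67 over the 26 mitosis members, with 19 above 0, beside 0.03 over all genes, of which 52.6% of those tested were above 0. Scaling on probes detected on all arrays moved the median over all genes to 0.77 and the class medians to 0.91 and 1.4, and normexp turned the replication median to -0.18, beside -0.23 over all genes. In sorted cells the medians were -1.53 and -1.68, beside 0.86 over all genes, with 5 of 17 and 6 of 26 members above 0, beside 59.5% of genes tested. Replication minus mitosis was thus -0.49 in LCM and 0.14 in sorted cells. In each single array, the median replication signal minus the median mitosis signal was also taken, with each gene centred on its mean. That value varied between arrays of a group with an SD of 0.88 in LCM and 0.41 in sorted cells. Neither gap exceeded it, though an SD of single arrays is not the spread of a difference between group means. Without 5 members whose class is debatable (Ccna2, Mki67, Top2a, Foxm1, Gmnn) the sorted gap was 0.71. These members and classes were compared by description, with no test on the medians.

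The sinus difference in sorted cells minus that in LCM samples had a median of -0.83 over replication members and -3.02 over mitosis members, beside 0.71 over all genes. Values were above 0 for 4 of 17 and 3 of 26 members, beside 57.7% of genes tested. The class gap was 2.18 and fell to 0.59 with normexp background correction. Without that correction, the same per-array value varied within groups by an SD of 0.81, which is not the spread of the gap. No member was called, beside 1.3% of all genes (0.559% higher, 0.738% lower), and at an unadjusted p under 0.05 there were 8 of 40 lower and 0 higher, beside 8.67% and 12.6% of all genes. Kif23 had the lowest p, with -9.89 (SE 2.41, adjusted p = 0.0615), then Mcm3 with -8.85 (SE 2.46, adjusted p = 0.0873), a value that rests on sorted medullary arrays not above background. Ccnb2 gave -5.31 (SE 1.71, adjusted p = 0.121) and Ccna2 -6.48 (SE 2.19, adjusted p = 0.135), which normexp moved to -1.9 and -2.37. Without subcapsular LCM replicate 3, Ccnb2 was called (adjusted p = 0.0309), and without replicate 2, Mcm3 was (0.04). For each gene the array left out was the only subcapsular LCM array above background. Both calls therefore rest on subcapsular values not above background. Cdt1 gave -5.86 (SE 2.08, adjusted p = 0.149) and Mcm2 -7.44 (SE 2.64, adjusted p = 0.15). Leaving out single arrays took them as low as -8.22 and -10.45. Leaving out a sorted medullary array leaves 1 array in that group. For Mcm2, replicate 7 was the only sorted medullary array above background. Kif23 was called under normexp (adjusted p = 0.0283), quantile scaling (0.0484) and the deposited log2 values (0.0474). It was also called without subcapsular LCM replicate 3 (0.0345) or 5 (0.0469), its only subcapsular LCM arrays above background. The mean of its probes gave -3.45 (adjusted p = 0.193). Mcm5, by contrast, had nearly the same negative sinus difference in LCM and sorted cells, with an interaction of -0.44 (adjusted p = 0.914).

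**Figure D5:**
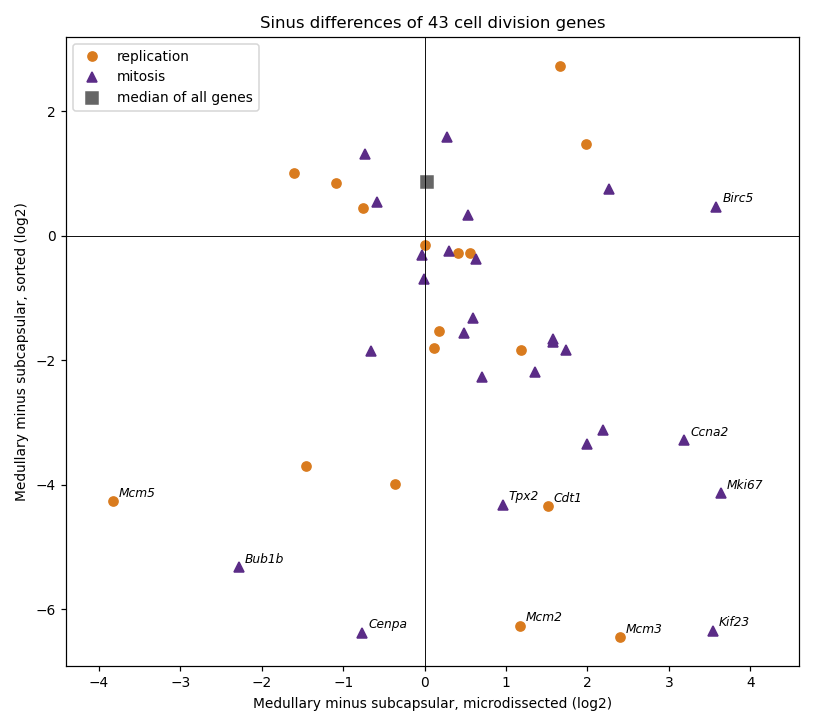
Medullary minus subcapsular difference (log2) of each of the 43 members in LCM samples (x axis) and in sorted cells (y axis), with circles for replication, triangles for mitosis and a square for the median of all genes at 0.03 and 0.86. Kif23, Mki67 and Ccna2 sit at lower right, and Mcm5 and Bub1b at lower left.

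Between isolations, sorted cells had higher means than LCM samples for most members in the subcapsular sinus and for fewer in the medullary sinus. Sorted minus LCM was above 0 for 36 of 43 members in the subcapsular sinus (median 1.92), beside 43.7% of all genes (median -0.22). In the medullary sinus it was above 0 for 17 of 43 (median -0.3), beside 63.1% of all genes (median 0.51). Mki67 gave 5.34 and -2.44, Kif23 6.4 and -3.49 and Mcm3 5.87 and -2.98 in the subcapsular and medullary sinus. These use the same arrays as the sinus differences above and are a description with no test. All subcapsular LCM arrays were on slide 1 and both sorted subcapsular arrays on slide 2, so isolation and slide cannot be told apart there. Averaged over both sinuses, 1 of 40 members tested was called (Cdc6), beside 3.84% of all genes (1.82% higher, 2.03% lower), a share no larger than the background. Cdc6 (probe at chr11:98782986-98783045 on mm9, plus strand) rose in sorted cells by 3.83 (SE 0.87, adjusted p = 0.0273). It entered this fit only through the sorted medullary arrays, where it is high, and 8 of its 10 LCM values were not above background, so the size of the difference is not well measured. Cdc6 read -6.22, -5.67, -7.14, -6.97 and -7.48 in subcapsular and -4.55, -1.74, -5.12, -7.28 and -6.47 in medullary LCM arrays. It read -1.37 and -5.42 in subcapsular and -0.77 and -0.57 in medullary sorted arrays. A second Cdc6 probe was above background on 2 arrays only. No subcapsular LCM array of the chosen probe was above background, while 2 of 5 medullary LCM arrays and 3 of 4 sorted arrays were. The call was lost without medullary LCM replicate 5 (adjusted p = 0.0506), sorted subcapsular replicate 6 (0.177) or sorted medullary replicate 7 (0.0593). It was also lost under normexp (difference 1.16, adjusted p = 0.124), without array weights (0.0534) and with slide as a block (difference 6.29, adjusted p = 0.0589).

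Over all 43 members, Cdc6 included, 31 had an averaged difference above 0, with a median of 0.83 beside 0.16 over all genes, where 57.3% of those tested were above 0. At an unadjusted p under 0.05, 5 of 40 (again with Cdc6) were higher and 0 lower, beside 9.42% and 6.59% of all genes. After Cdc6, the replication members with the lowest p were Mcm6 at 1.87 (SE 0.68, adjusted p = 0.181) and E2f1 at 1.64 (SE 0.71, adjusted p = 0.273). Mcm6 read between -2.79 and 0.24 in subcapsular and between -3.53 and 0.87 in medullary LCM arrays, and 1.1, 0.88, 1.31 and 0.12 in sorted arrays. The mitosis members were Cdk1 at 1.23 (SE 0.43, adjusted p = 0.161), Birc5 at 2.29 (SE 1.04, adjusted p = 0.305) and Ube2c at 1.43 (SE 0.79, adjusted p = 0.415). Birc5 was called with the mean of its probes in place of 1 probe (2.46, adjusted p = 0.0387) and without subcapsular LCM replicate 2 (2.96, adjusted p = 0.0255). Replication and mitosis members had medians of 0.87 and 0.8. Comparing only the medullary arrays of slide 2, the members' median was -0.04 beside 0.68 over all genes, and Cdc6 differed by 6.21 (adjusted p = 0.126). That comparison leaves out the subcapsular sinus as well as slide 1, so slide and sinus cannot be told apart in it.

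Related cell cycle genes outside the set were read the same way. Of 40 other replication genes, 0 were called between sinuses in either isolation, with median differences of 0.07 in LCM and -2.77 in sorted cells. Chek1, the replication checkpoint kinase, had the lowest p in LCM (1.9, adjusted p = 0.266) and Gins4, a helicase partner, in sorted cells (-8.31, adjusted p = 0.0645). Orc4, a subunit of the origin recognition complex, was called lower in sorted cells than in LCM samples (-4.03, SE 0.45, adjusted p = 0.000186) and in the interaction (-6.36, SE 0.9, adjusted p = 0.00763). Of 38 other mitosis genes, 32 had a difference above 0 between sinuses in LCM, with a median of 1.38 beside 0.03 over all genes, and 0 were called. They were above background for 18 to 27 of 38 in subcapsular and 30 to 35 in medullary LCM arrays. Spc24, of the Ndc80 complex, had the lowest p among them (4.46, adjusted p = 0.31). In sorted cells their median was -0.58, with Cenpt, of the inner kinetochore, lowest in p (-6.38, adjusted p = 0.0645). Nek2, a centrosome kinase, was lowest in p for isolation (3.49, adjusted p = 0.068) and the interaction (-8.53, adjusted p = 0.0514). No gene of the 11 G1 cyclins, kinases and entry factors or of the 16 CDK inhibitors and pocket proteins was called in any of the 4 comparisons. In the first list E2f2 (-4.17, adjusted p = 0.257), E2f3 (-6.36, adjusted p = 0.0645), Mycn (-1.8, adjusted p = 0.236) and Ccnd3 (-5.03, adjusted p = 0.0547) had the lowest p in LCM, sorted cells, isolation and interaction. In the second list these were Rbl1 (2.03, adjusted p = 0.269), Cdkn2c (-4.89, adjusted p = 0.0645), Cdkn2c again (-3.68, adjusted p = 0.172) and Btg2 (-5.66, adjusted p = 0.168).

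Markers of the endothelium and of other cells moved beside these values. Pecam1 was called lower in sorted cells (-3.99, adjusted p = 0.00664) and in the interaction (-8.86, adjusted p = 0.0123), and Cdh5, an endothelial cadherin, was called lower in sorted cells (-2.94, adjusted p = 0.0162). Summed lymphatic endothelial signal was 4.18 to 5.41 in sorted subcapsular and 1.46 to 3 in sorted medullary arrays, and its part in the sorted sinus difference of the members was not tested. In the sorted subcapsular arrays Pecam1 alone read 3.97 and 5.27. Of the 11 markers, 5 had a higher mean in the sorted medullary arrays, and the median difference was -0.31. Pdpn read -4.9 and -5.6 in sorted subcapsular and -1.53 and -0.3 in sorted medullary arrays. Among the germinal centre B cell markers, Rgs13 was called higher in sorted cells (4.61, SE 1.09, adjusted p = 0.0336). It read 1.19 and 2.41 in the sorted subcapsular, -0.45 and -1.11 in the sorted medullary and between -7.25 and -0.2 in the LCM arrays. The summed signal of the list was 4.39 and 5.16 in sorted subcapsular and 2.82 and 2.89 in sorted medullary arrays, on the log2 scale. In LCM arrays it spanned -0.94 to 4.5 in subcapsular and 0.97 to 2.65 in medullary samples. Plasma cell markers summed to 5.13 and 5.44 in sorted subcapsular and 2.98 and 3.88 in sorted medullary arrays. All 8 B cell markers were above background on every array, with a median difference of -1.37 between sinuses in LCM and -1.67 in sorted cells. Sorted minus LCM had a median of -0.75 over these markers, with 0 of 8 above 0. The further markers called lower in sorted cells between isolations were 4 of fibroblastic reticular cells, 1 of B cells, 1 of macrophages and 1 housekeeping gene. Blood endothelial markers had a median of 2.94 between sinuses in LCM, with Darc called (5.44, adjusted p = 0.0163). Darc was also called in the interaction (-6.92, adjusted p = 0.0177). Blood endothelial signal summed to 4.9 to 7.31 in subcapsular and 7.64 to 8.14 in medullary LCM arrays. The part of these cells in the members' values was not tested.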

How the data were processed

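The 14 arrays were 1-colour Agilent arrays of amplified RNA. Per the file headers, Feature Extraction 10.7.3.1 gave each spot a background-adjusted intensity in arbitrary units with probe positions on mm9. A second deposited file holds log2 values (median 5.43 on each array) whose scaling is not given in the sources used here; it served as an alternative. Here log2 intensity minus each array's 75th percentile was used, with 1 probe per gene name. Probes entered a fit when well above background on at least 3 of 5 LCM arrays of a sinus or on both sorted arrays of a sinus. limma 3.58.1 in R 4.3.3 fitted each comparison over all genes, with Benjamini-Hochberg adjustment; fits over 14 arrays used array weights by isolation. Scripts were tested on simulated data. The number of arrays limits precision. Isolation, cell number (50 or 1200), enzyme digestion and the body sites of the nodes go together and cannot be told apart.

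Members called in a comparison, and otherwise the 3 of each class with the lowest p, were named with full statistics, and 6 further members (Mki67, Top2a, Pcna, Mcm2, Cdk1, Ccnb1) with every array. Of the lists of related cell cycle genes the called gene, or the gene with the lowest p, was named. Of the marker lists only some called genes were named. Members and lists were chosen with earlier results of these data known. The alternatives covered background correction, scaling, the filter, the probe rule, variance moderation, slide, row, array weights and leaving out each array. The result of 1 marker gene is not reported here.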

Additional observations from a re-analysis of the deposited data

Results flagged for a closer look

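Each member was examined in both LCM groups for 1 array far from the other 4, 86 tests in all, and 8 stood out. The cut is set at about 1 in 20 for normally distributed values. Values near background need not be so distributed, and the rule was not run over all genes. The count is therefore a description. In subcapsular arrays, Ccne2 read -2.68 in replicate 2 (others -7.47 to -6.38), Mcm3 read -0.35 in replicate 2 (others -7.37 to -6.15) and Cenpf read -0.83 in replicate 1 (others -6.79 to -5.16). For these 3 genes the flagged array was the only subcapsular LCM array above background. In medullary arrays, Mcm7 read 2.5 in replicate 4 (others 0.34 to 0.9) and Cdt1 read -1.33 in replicate 5 (others 1.2 to 1.85). Bub1b read -7.38 in medullary replicate 4 (others -1.98 to -0.41). Cenpa read -3.29 (others -0.41 to 0.36) and Kif11 read -4.86 (others -1.75 to -0.74), both in medullary replicate 1.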

How the results depend on the processing

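Among LCM sinus differences of all genes, the 48 calls became 8 with normexp, 15 with quantile scaling, 16 with the deposited table, 225 with the percentile over detected probes, 104 with a stricter filter, 127 with slide as a block, 212 within slide 1, 14 with row as a block, and 17 to 96 leaving out single arrays (17 without medullary replicate 2, 96 without subcapsular replicate 5 or medullary replicate 4, 92 without medullary replicate 5). Members called there stayed at 0 except for 1 with the percentile over detected probes (Tyms, 2.71, adjusted p = 0.0378), and were 0 to 0 leaving out single arrays. For sorted cells, 0 calls became 1813 (6 members) with trend and robust variance and 4414 (4 members) with all 14 arrays. The replication minus mitosis gap of 0.14 there became 0.76 with quantile scaling, 0.78 with the deposited table, 0.71 without 5 members of unclear class, and -0.33 to 1.16 leaving out single arrays. Between isolations, 1141 calls became 747 without array weights, 183 with slide as a block, 0 among the medullary arrays of slide 2, and 590 to 1543 leaving out single arrays (590 and 629 without sorted subcapsular replicate 6 or 7). The 1 member called became 2 with the mean of probes, 0 with normexp, without weights, with slide as a block and among the medullary arrays of slide 2, and 0 to 2 leaving out single arrays. For the interaction, 385 calls became 680 with normexp, 1136 with quantile scaling, 1123 with the deposited table, 256 with no filter, 109 without weights, 48 with slide as a block, and 11 to 1077 leaving out single arrays (11 without sorted subcapsular replicate 7, 1077 without sorted medullary replicate 6). Members called there rose from 0 to 1 with normexp, quantile scaling and the deposited table, and were 0 to 2 leaving out single arrays, and the class gap of 2.18 became 0.59 with normexp and 1.13 to 2.5 leaving out single arrays. The cause of these shifts was not tested. Of the alternatives for single named members, 492 kept direction and side of the threshold, 23 gained a call and 7 lost one. Only Cdc6 had a call to lose, so all 7 losses were its own. It lost the call in 4 of 11 settings other than leaving out a single array, and the remaining losses came from leaving out single arrays. For the other members, keeping the side means staying uncalled.

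With the replicate number as a block, 0 genes were called in the LCM comparison, 0 in sorted cells and 0 in the interaction, and 0 members in each. Same-numbered samples did not deviate together (r from -0.0202 to 0.00489 in LCM and -0.0109 in sorted cells), so the numbers are not taken as a pairing. No paired analysis was possible for sorted against LCM samples because they share no replicate numbers.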

Other observations

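The SD was larger in subcapsular than in medullary LCM arrays for 30 of 43 members (69.8%), a share near the 71.5% of all genes tested in LCM. That share is therefore not particular to the members. The median SD of the members was 2.36 in subcapsular and 1.5 in medullary arrays, beside 1.46 and 1.1 over all genes tested in LCM. Across the 10 LCM arrays, after removing group means, the mean correlation between pairs of genes was 0.0819 among mitosis members, -0.0153 among replication members, -0.0335 between the classes and 0.0462 over all tested genes, as a description of arrays that share slides and amplification. Of 18 other probes for 14 members, 9 had the sign of the chosen probe in LCM and 10 in sorted cells. Tk1, thymidine kinase, gave 0.45 in sorted cells with its chosen probe and -4.54 and -4.82 with its other 2 probes. Birc5 gave 0.46 with its chosen probe and -2.93 and 0.12 with the others.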
